A study of Mus musculus with 23 samples.

Results

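MicroRNAs (miRNAs) were compared between mouse retina without Rb and p107 (DKO) and wild-type retina (WT), in the second of 2 profiling sets of a series on retinoblastoma. The comparison takes 3 DKO against 3 WT samples, 6 of the 23 samples of the series, chosen by their labels alone, over all 522 assays. Fresh untreated retinal cells of a mixed background strain were used in both groups, and the second-set labels give the genotype only as DKO or WT. The titles of the first set spell DKO out as Chx10Cre; Rb lox/lox; p107 -/-, a Cre driven in retinal progenitors with floxed Rb and an allele of p107 that is null throughout the animal, and the same meaning is assumed for the second set. The set also holds 4 DKO_P53KO samples, which also enter the fit. The labels give no age or litter and do not tell whether samples come from separate animals. A p-value here therefore covers the spread between samples, which may be technical. The panel reads miRNAs and not the Rb, p107 or p53 transcripts, which left the genotypes unchecked.

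Rb and p107 bind E2F transcription factors and hold back entry into the cell cycle, so retinal progenitors without them keep dividing or die where they would normally leave the cycle. MiRNAs are short RNAs that pair through their seed, bases 2 to 8, with messenger RNAs and lower their translation and stability. Several miRNA clusters are known E2F targets, among them those that begin with miR-17, miR-106b and miR-15b, whereas miR-34b and miR-34c are induced by p53, and miR-182, miR-183 and miR-96, which are made from one cluster, are abundant in photoreceptors.

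The mature sequences of the miRNAs on which the results turn were taken from RefSeq (mouse, GRCm38.p6), where 25 of 28 miRNAs looked up were matched by name. Capitals mark the seed. The miR-183, miR-96 and miR-182 hairpins lie at chr6:30165918-30169737 on the minus strand, and the mature miRNAs have 3 similar but distinct seeds:
miR-183: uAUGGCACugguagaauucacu
miR-96: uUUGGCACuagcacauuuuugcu
miR-182: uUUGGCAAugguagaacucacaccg

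The second group is shown because its members behaved alike across the DKO samples and, with the exception of miR-18a, share one seed. MiR-17, miR-18a and miR-20a come from the miR-17 cluster at chr14:115043671-115044506 on the plus strand, miR-93 and miR-106b from chr5:138165321-138165818 on the minus strand, and miR-106a and miR-20b from chrX:52741838-52742567 on the minus strand:
miR-17: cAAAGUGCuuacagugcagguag
miR-20a: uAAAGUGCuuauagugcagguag
miR-106a: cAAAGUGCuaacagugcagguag
miR-20b: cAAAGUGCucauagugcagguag
miR-93: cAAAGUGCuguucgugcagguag
miR-106b: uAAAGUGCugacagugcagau
miR-18a: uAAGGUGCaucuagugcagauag
MiR-17 and miR-106a differ at 1 base, so whether each assay also reads the other was not tested. MiR-20a and miR-20b differ at 2 bases.

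The third group pairs miRNAs with the same seed in 2 other families. MiR-34b lies with miR-34c at chr9:51103034-51103645 on the minus strand, and miR-449 carries the same seed:
miR-34b-5p: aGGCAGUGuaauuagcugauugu
miR-449: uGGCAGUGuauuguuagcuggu
miR-146a: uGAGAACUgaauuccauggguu
miR-146b: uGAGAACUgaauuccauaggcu

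The table holds quantification cycles (Cq), the PCR cycle at which an assay crosses its threshold, and a lower Cq means more template. Detection meant a Cq of at most 32. To obtain a log2 relative quantity, the assay's own Cq was subtracted from the average Cq of 284 assays that were detected in each of the 10 samples of the set. One unit is thus about a doubling against that average. Undetected and lower values were set to a floor of −7.40. Amplification efficiency differs between assays, so levels are compared between samples and not between miRNAs. WT samples had 307 to 320 detected assays and DKO samples 311 to 318, and 309 assays were tested. The mean Cq of the 284 assays was 24.01 ± 0.461 in WT (SD, n = 3) and 24.39 ± 0.312 in DKO (SD, n = 3), a difference of 0.37 cycles (two-sided exact permutation p = 0.2, the smallest possible being 0.1). The scaling removes this shift, so unscaled differences are 0.37 lower. Unscaled, 5 assays (1.62%) lay wholly higher in DKO and 32 (10.4%) wholly lower, against 44 (14.2%) and 42 (13.6%) after scaling, and the median difference of all assays was −0.30 against 0.08.

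Both assays for miR-378 fell in DKO, and they were the only ones of the 309 to pass an adjusted p of 0.05 (limma, Benjamini-Hochberg; 0.647% of assays tested). None passed in the higher direction, where 12 assays (3.88%) had an unadjusted p under 0.05, against 21 (6.8%) in the lower direction and 33 (10.7%) in all. MiR-378 is encoded within the gene of the metabolic coactivator PGC-1β. The assay with the number TM 2243 stood at 1.77, 2.23 and 1.82 in WT replicates 1 to 3 and at 0.05, 0.83 and 0.19 in DKO replicates 1 to 3. All DKO samples lay below all WT samples, and the difference of −1.59 ± 0.27 log2 (SE) is a 3.00-fold lower level (adjusted p = 0.0401). The assay TM 567 stood at −2.76, −2.04 and −2.72 in WT and at −4.51, −3.90 and −4.04 in DKO, again without overlap, and differed by −1.64 ± 0.29 (adjusted p = 0.0401). The table does not say which mature form each assay reads. The DKO_P53KO samples of the set, which enter no difference given here, stood at −0.17, −0.08, −0.03 and 0.16 for TM 2243 and at −5.31, −5.63, −5.42 and −5.01 for TM 567. Both calls held without DKO replicate 2 or DKO_P53KO replicate 1 or 3. With trend and robust estimation TM 567 did not pass (adjusted p = 0.0645). With the replicate number added to the fit as a block neither passed (adjusted p = 0.0707 for TM 2243 and 0.104 for TM 567). Without scaling neither passed (adjusted p = 0.156 each; 0 of 309 assays called). Without any single WT sample, DKO replicate 1 or 3, or DKO_P53KO replicate 2 or 4, no assay of the 309 to 316 then tested was called, and the miR-378 assays had adjusted p between 0.0527 and 0.239.

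The miR-183 cluster lay far lower, and all 4 of its tested assays lay lower in every DKO sample than in any WT sample. Of all 309 assays, 42 (13.6%) had DKO samples wholly below WT and 44 (14.2%) wholly above. MiR-96 stood at 3.69, 3.65 and 3.71 in WT and at −0.61, 1.67 and 0.83 in DKO, a difference of −3.05 ± 1.31 (adjusted p = 0.431). The WT samples were almost level, whereas DKO replicate 1 was lowest and DKO replicate 2 highest within DKO. MiR-183 stood at 5.25, 5.24 and 4.94 in WT and at 1.55, 3.07 and 2.75 in DKO, a difference of −2.68 ± 1.69 (adjusted p = 0.71). MiR-183*, the other arm of the same hairpin, stood at 4.90, 5.03 and 4.69 in WT and 1.78, 3.38 and 2.84 in DKO (difference −2.20 ± 1.67, adjusted p = 0.851). Both arms had the same order of DKO samples, with replicate 1 lowest and replicate 2 highest. MiR-182, by contrast, stood at 7.26, 6.97 and 7.30 in WT and at 3.79, 5.16 and 5.22 in DKO, so that replicates 2 and 3 were nearly equal there (difference −2.45 ± 1.63, adjusted p = 0.742).

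None of these 4 differences passed the test of the full set, and most of their residual spread came from 1 sample outside the comparison. DKO_P53KO replicate 3 supplied between 65.7% and 72.2% of the residual sum of squares of the 4 assays. Its miR-182 stood at −2.97, against 3.02 to 4.81 in the other DKO_P53KO samples, and its miR-96 lay at the floor. Without that sample all 4 assays passed, as 4 of 10 assays called (3.24% of 309; adjusted p from 0.0213 to 0.0377). In a fit of the 6 WT and DKO samples alone 12 assays were called (3.88% of 309), and these 4 were among them (adjusted p = 0.0363 each). Within that fit the differences were −3.05 ± 0.53 for miR-96, −2.68 ± 0.39 for miR-183, −2.45 ± 0.39 for miR-182 and −2.20 ± 0.39 for miR-183*. In bulk tissue, fewer photoreceptor or other sensory cells and less of these miRNAs per cell cannot be told apart.

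**Figure D1:**
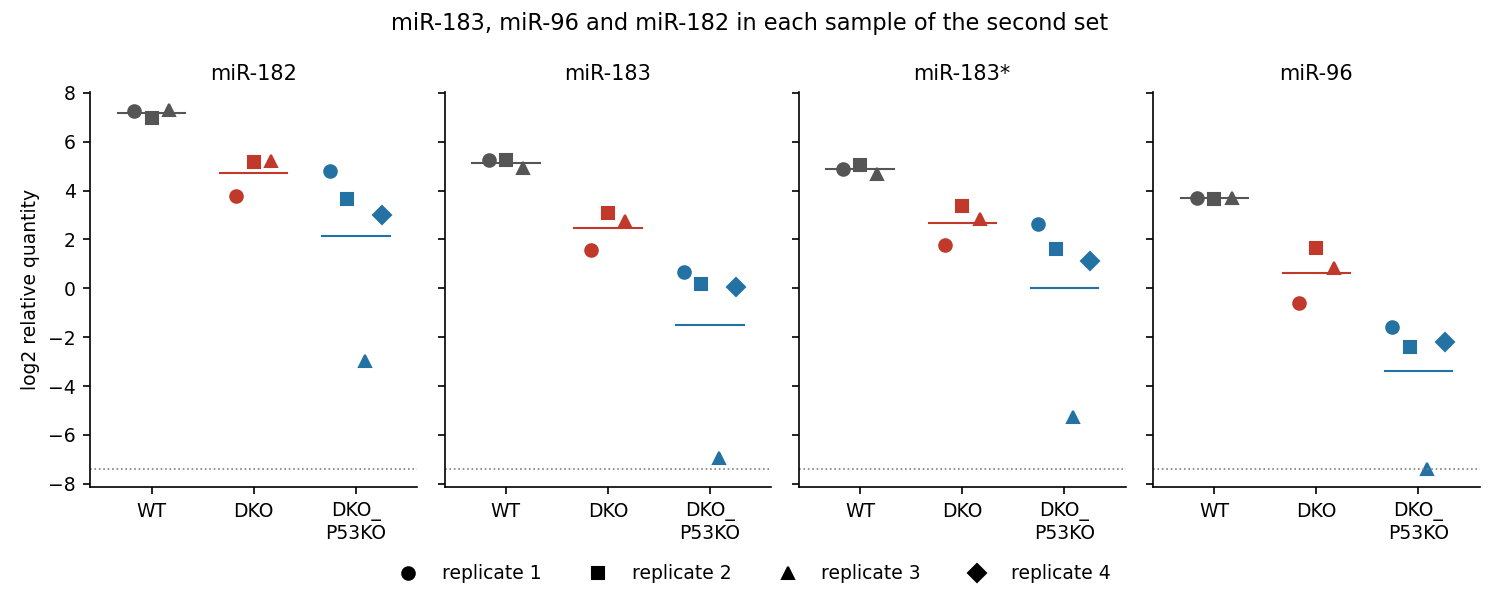
Log2 relative quantity (vertical axis) of miR-182, miR-183, miR-183* and miR-96 in each WT (grey), DKO (red) and DKO_P53KO (blue) sample; symbols mark the replicate number, short lines the group means and the dotted line the floor of −7.40. All DKO samples lie below all WT samples, and DKO_P53KO replicate 3 lies far below its group, at −2.97 for miR-182.

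The 12 calls of the 6-sample fit were 2 higher and 10 lower assays. MiR-124*, from the hairpin of the neuronal miR-124, stood at 0.73, 1.59 and 1.86 in WT and at −1.87, −0.52 and −0.77 in DKO. The groups did not overlap, and the difference of −2.44 ± 0.50 had an adjusted p of 0.073 over the full set and 0.0363 in the 6 samples. The major arm, read as miR-124a, was also lower without overlap, at 4.95, 4.98 and 4.61 in WT and 3.49, 4.25 and 3.77 in DKO, a smaller difference of −1.01 ± 0.34 (adjusted p = 0.231). Of the 18 tested neural assays, 2 lay wholly lower (11.1%, against 13.6% of all assays) and 4 wholly higher (22.2%, against 14.2%). Those 4 were miR-135a, miR-135b, miR-218-1* and miR-9, with differences between 0.29 and 0.47 log2. MiR-9 and miR-9*, from one hairpin and both known from neural progenitors, had differences of 0.31 and −0.44. The neural list as a whole had a median difference of −0.23, against 0.08 for all assays, and without scaling none of its members lay wholly higher and 1 wholly lower. MiR-218-1* joined the list after the assay names of the table had been seen, and without it 3 of 17 lay wholly higher (17.6%).

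MiR-191, a broadly expressed miRNA, stood at 5.99, 5.92 and 6.12 in WT and at 5.23, 5.18 and 5.23 in DKO, and its partner miR-191* at −4.40, −4.53 and −4.19 in WT and −5.20, −5.37 and −5.0 in DKO. Both arms lay lower without overlap, with differences of −0.79 ± 0.22 and −0.82 ± 0.24 (adjusted p = 0.175 and 0.187), and miR-191 passed in the 6-sample fit (adjusted p = 0.0421). The same held for miR-872 and miR-872*, whose differences were −0.91 ± 0.39 and −1.07 ± 0.30. MiR-872 passed in the 6-sample fit (adjusted p = 0.0363). MiR-15a, which shares its seed with miR-16, stood at 0.84, 0.98 and 0.88 in WT and −0.06, −0.30 and 0.21 in DKO (difference −0.95 ± 0.29, adjusted p = 0.188; 0.0483 in the 6-sample fit).

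Pairing assays by name found 63 hairpins with both arms tested, and none of these pairs had its arms separated in opposite directions. This pairing missed arms with unlike names, such as miR-124a and miR-124*, which both lay wholly lower. In 7 of the 63 pairs both arms lay wholly lower in DKO: those of miR-183, miR-26b, miR-872, miR-126, miR-191, miR-335 and miR-27b. In 2 pairs, miR-34b and miR-676, both lay wholly higher. In 15 pairs only 1 arm was separated, as for miR-34c (1.18) and miR-34c* (0.23), and in 39 pairs neither was. MiR-17 and miR-17* had differences of opposite sign, 1.20 and −0.60, with overlap in each.

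**Figure D2:**
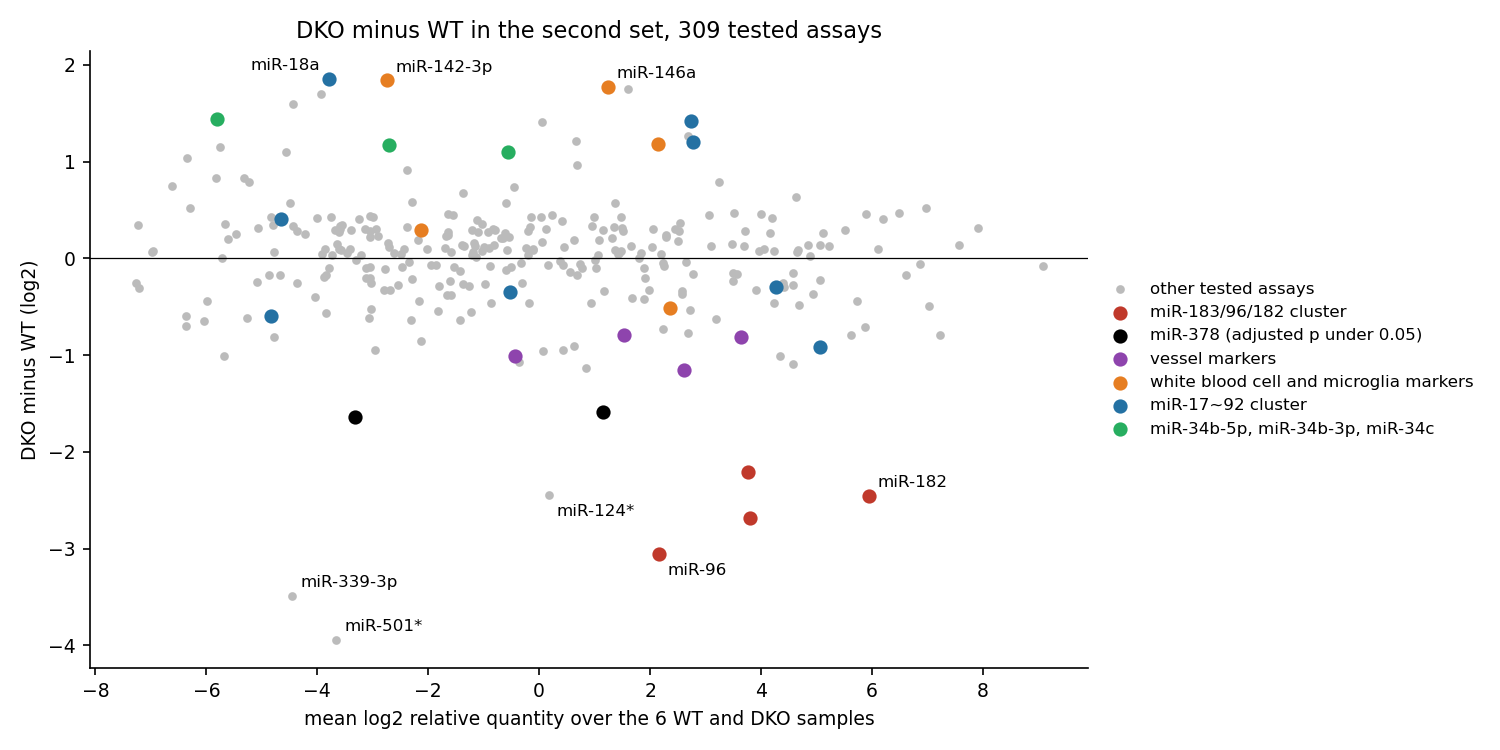
DKO minus WT (vertical axis, log2) of the 309 tested assays against their mean log2 relative quantity over the 6 samples (horizontal axis); colours mark the lists named in the key. The miR-183 cluster assays lie between −3.05 and −2.20, the 4 vessel assays between −1.15 and −0.79, and the 2 lowest points, miR-339-3p and miR-501*, come from assays without a Cq in 2 DKO samples.

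The lowest points of all, miR-501* and miR-339-3p, rest on wells without a value. MiR-501* had a Cq of 25.1 to 26.2 in all WT samples and in DKO replicate 2, and none in DKO replicates 1 and 3. MiR-339-3p had a Cq of 26.1 to 27.8 in the same 4 samples and none in DKO replicates 1 and 3. Their differences of −3.94 ± 1.18 (adjusted p = 0.187) and −3.49 ± 0.82 (adjusted p = 0.141) take these wells as low. From the wells with a Cq alone, which leave DKO replicate 2 as the only DKO sample, they were −0.42 and −1.07. Without DKO replicate 2 both passed (adjusted p = 2.15e-05 each), resting on the wells without a Cq. MiR-339-5p, the other arm, was read in all 6 samples and differed by −0.28. Whether the wells failed was not tested.

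The clusters linked to E2F split the DKO group. DKO replicates 1 and 3 carried more miR-17 and its seed relatives than any WT sample, and DKO replicate 2 did not. MiR-17 stood at 2.15, 1.87 and 2.51 in WT and at 3.97, 1.95 and 4.21 in DKO. MiR-20a stood at 2.02, 2.04 and 2.01 in WT and at 4.18, 1.72 and 4.44 in DKO, so that replicates 1 and 3 were more than 2 log2 units above WT while replicate 2 was below every WT sample. MiR-93, of the miR-106b cluster, stood at 0.70, 0.52 and 0.99 in WT and 3.26, 0.76 and 3.43 in DKO, with replicate 2 inside the WT range. MiR-18a, low in WT at −5.04, −5.18 and −3.91, stood at −1.93, −4.85 and −1.78 in DKO.

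The X-linked relatives had the same split, with miR-106a at 1.90, 1.96 and 2.27 in WT and 3.93, 1.89 and 4.11 in DKO and miR-20b at −0.65, −0.82 and −0.49 in WT and 1.49, −0.95 and 1.74 in DKO. MiR-25, which has the seed of miR-92, stood at 1.97, 1.79 and 2.24 in WT and 2.24, 0.54 and 2.61 in DKO, with replicates 1 and 3 at or just above the highest WT sample. MiR-92, miR-19a and miR-19b, of the miR-17 cluster with other seeds, did not have this split. MiR-92 lay wholly lower in DKO (5.65, 5.30 and 5.59 in WT and 5.09, 3.48 and 5.22 in DKO), with replicate 2 lowest. MiR-19b stood at 4.65, 4.21 and 4.41 in WT and 4.24, 3.37 and 4.78 in DKO, with only replicate 3 above WT, and miR-19a at 0.01, −0.59 and −0.45 in WT and −0.52, −1.46 and −0.11 in DKO. Over DKO as a group the 8 tested assays of the miR-17 cluster therefore ranged from −0.92 to 1.86, with adjusted p between 0.444 and 0.96.

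MiR-449 and miR-449b, which are E2F1 targets and carry the miR-34 seed, split the group in the same way. MiR-449 stood at −2.78, −3.33 and −2.40 in WT and at −0.33, −4.50 and −0.92 in DKO, and miR-449b at −5.44, −5.63 and −4.66 in WT and −2.17, −6.52 and −2.26 in DKO. In each, DKO replicates 1 and 3 lay above all WT samples and replicate 2 below all. MiR-15b and its partner arm miR-15b* did the same, with miR-15b* at −3.14, −3.12 and −3.30 in WT and −1.83, −5.0 and −1.89 in DKO. MiR-16, which is made from the same transcript as miR-15b and from another locus, lay wholly lower instead, at 6.39, 6.05 and 6.26 in WT and 5.71, 5.06 and 5.81 in DKO.

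Of the 21 tested assays of the miR-17, miR-106b and X-linked miR-106a clusters and the E2F-linked list, 16 (76.2%) had DKO replicates 1 and 3 above all WT samples and replicate 2 not. Over all 309 assays 37 (12%) had this pattern. In 12 of the 21 (57.1%) replicate 2 then also lay below all WT samples, against 21 of 309 (6.8%). These lists were joined after their values were seen, and members share seeds and transcripts, so the shares are a description. Across the 284 scaling assays DKO replicate 2 was also nearer to WT, with an SD of its difference from the WT mean of 0.609, against 0.912 and 0.762 for replicates 1 and 3. Replicates 1 and 3 differed from each other with an SD of 0.478 and from replicate 2 with SDs of 0.887 and 0.875. Replicate 2 was not a WT-like sample throughout: for miR-378 and the miR-183 cluster it lay below every WT sample. With replicate 2 left out, 12 of 312 assays (3.85%) were called in place of 2. MiR-93 was then at 2.60 (adjusted p = 0.00468), miR-18a at 2.85 and miR-449b at 3.02 (adjusted p = 0.0446 each), while miR-20a at 2.28 missed the threshold (adjusted p = 0.0554). How replicate 2 differs in age, genotype or cell content was not tested. In the first set, on the scale of both sets, DKO minus WT was −0.05 for miR-17, 0.02 for miR-20a and miR-106a and 0.53 for miR-93. There miR-449 was at 2.39 and miR-195 at 1.27. Of these only miR-195 differed between the sets (limma interaction term, adjusted p = 0.0469). Which DKO samples are typical for these miRNAs was not tested.

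**Figure D3:**
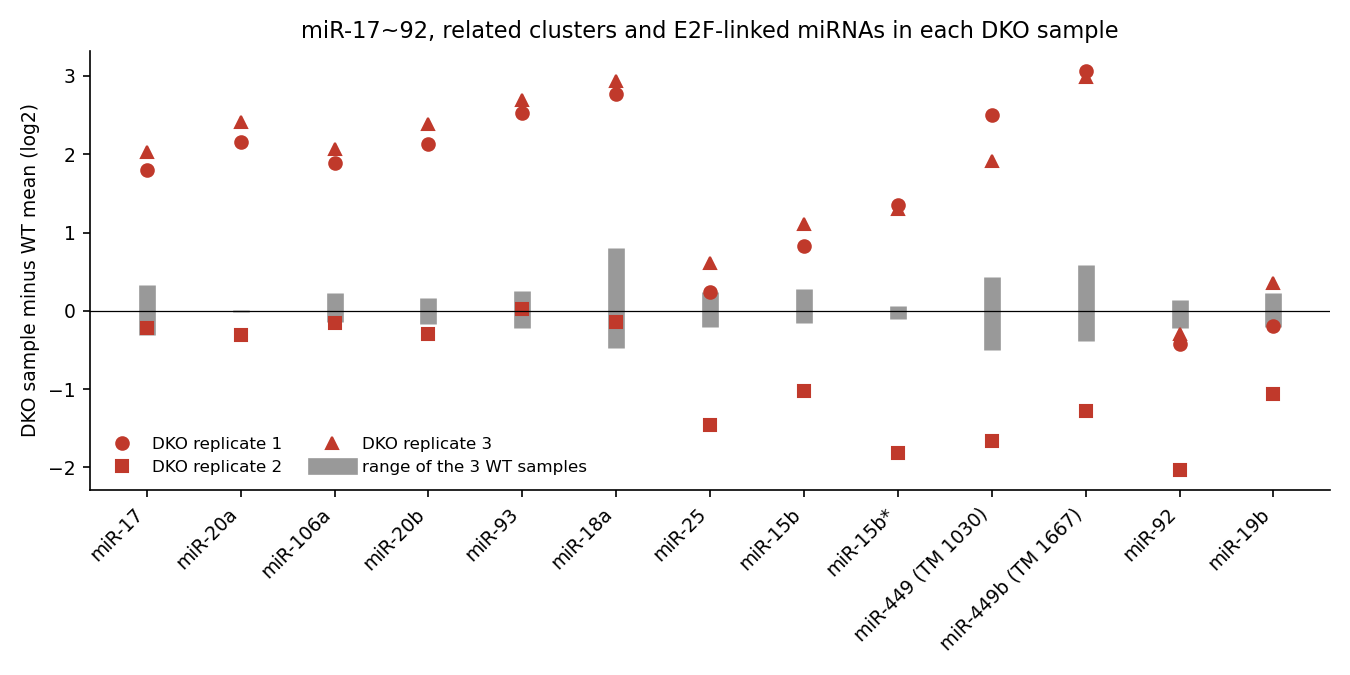
Each DKO sample minus the WT mean (vertical axis, log2) for 13 assays of the miR-17 and related clusters and E2F-linked miRNAs; symbols mark DKO replicates and grey bars the range of the 3 WT samples. Replicates 1 and 3 lie above the WT range for 11 of the 13, and replicate 2 lies within or below it in all; miR-92 and miR-19b differ from the rest.

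The p53-responsive miR-34b and miR-34c assays stood higher in all 3 DKO samples, except that miR-34c* overlapped. MiR-34b-3p stood at −1.01, −1.28 and −1.05 in WT and at 0.69, −0.86 and 0.14 in DKO, where replicate 2 was just above WT. MiR-34c stood at −3.07, −3.58 and −3.22 in WT and −1.63, −2.63 and −2.08 in DKO, and miR-34b-5p at −6.15, −6.02 and −7.40 in WT and −4.81, −5.34 and −5.08 in DKO. The last WT value of miR-34b-5p is the floor, since WT replicate 3 had no Cq, and the other 5 samples had a Cq between 29.4 and 30. The differences were 1.10 ± 0.38, 1.18 ± 0.38 and 1.44 ± 0.39, and none passed (adjusted p = 0.239, 0.202 and 0.175). That of miR-34b-5p moved with the floor, from 0.32 at a detection limit of Cq 30 to 2.44 at Cq 35. Of the 8 tested p53-responsive assays, 4 lay wholly higher (50%, against 14.2% of all assays), the fourth being miR-107 at 0.14, and 2 did so without scaling. MiR-34b-3p, miR-34b-5p and miR-34c come from the same locus, so the share counts that locus more than once. MiR-192 and miR-194 had differences of −0.08 and −0.09, and miR-145 lay wholly lower. In DKO_P53KO, miR-34b-3p stood at 1.65, 1.43, 2.01 and 1.37, above every DKO sample. MiR-34c stood there at −1.45, −1.58, −0.72 and −2.06, which overlaps DKO. These assays were thus not lower in the samples labelled as without p53, and a part of p53 in the DKO values was not tested.

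Of 5 tested markers of white blood cells and microglia, 3 lay wholly higher in DKO (60%, against 14.2% of all assays), and 2 did so without scaling. MiR-142-3p, which is made in blood-derived cells, stood at −3.36, −3.52 and −4.10 in WT and at −1.15, −2.32 and −1.98 in DKO. MiR-146a, which restrains inflammatory signalling through NF-κB, stood at 0.34, 0.07 and 0.65 in WT and 3.34, 1.34 and 1.70 in DKO, with replicate 1 far above the others. Its seed relative miR-146b stood at 1.50, 1.52 and 1.63 in WT and 3.90, 2.47 and 1.83 in DKO. All 3 were without overlap, at 1.84 ± 0.59, 1.77 ± 0.51 and 1.19 ± 0.53 (adjusted p = 0.202, 0.187 and 0.444), and miR-142-3p passed in the 6-sample fit (adjusted p = 0.0438). MiR-155, induced in activated immune cells, lay above WT in DKO replicate 1 only, at −2.21, −2.49 and −2.14 in WT and −0.59, −2.81 and −2.57 in DKO, and the lymphocyte miRNA miR-150 had a difference of −0.52. The summed relative quantity of the 5 was 9.562 to 12.17 in WT and 28.87, 15.82 and 11.25 in DKO, so that DKO replicate 3 was inside the WT range. MiR-150 had the lowest Cq of the 5 in every WT sample and so the largest part of the WT sum. Amplification efficiency differs between assays, so that weight is not a measure of abundance. MiR-146b*, the other arm of miR-146b, was not tested, and its Cq overlapped (31.3, 30.5 and 32.1 in WT and 29.6, 30.7 and 32.5 in DKO). Of the 8 assays of the white cell list 3 were not tested. MiR-142-5p was detected in none of the 6 samples, and no marker of red blood cells was tested.

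Vessel markers stood lower. MiR-126 and miR-126*, from an endothelial gene, stood at 4.10, 3.80 and 4.22 and 2.22, 1.81 and 1.76 in WT and at 2.65, 3.60 and 3.44 and 0.73, 1.54 and 1.15 in DKO. MiR-143 and miR-145, of pericytes and smooth muscle, stood at 0.16, 0.06 and −0.03 and 3.36, 2.97 and 3.21 in WT and at −1.75, −0.31 and −0.78 and 1.15, 2.53 and 2.41 in DKO. DKO replicate 1 was lowest in each, and all 4 tested markers lay wholly below WT (100%, against 13.6% of all assays). Their median difference was −0.91. MiR-126 and miR-126* are arms of the same hairpin, so the 4 are not separate markers. None passed (adjusted p from 0.26 to 0.501), and 2 of the 4 stayed separated without scaling (50%, against 10.4% of all assays). The summed relative quantity was 26.35 to 33.17 in WT and 10.45, 21.6 and 18.94 in DKO. DKO replicate 1 thus had both the lowest vessel and the highest white cell sum. Both sums add assays whose amplification efficiency may differ. The part of these cell types in the other differences was not tested.

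**Figure D4:**
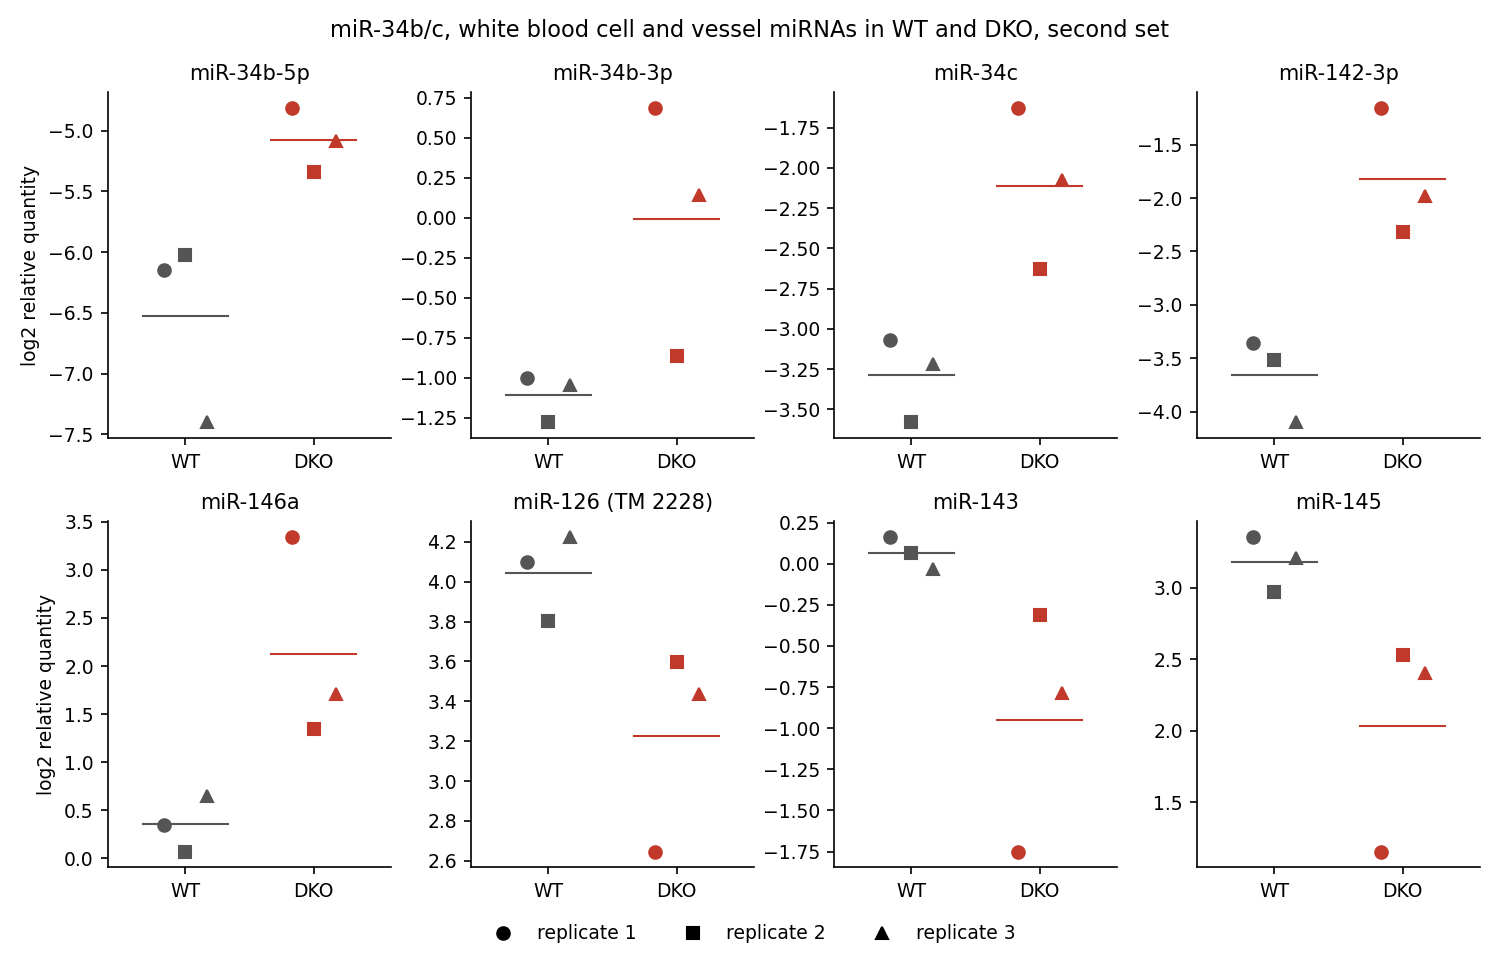
Log2 relative quantity (vertical axes, each panel with its own range) of miR-34b, miR-34c, white blood cell and vessel assays in each WT (grey) and DKO (red) sample; symbols mark the replicate number and short lines the group means. MiR-34b, miR-34c, miR-142-3p and miR-146a lie higher and miR-126, miR-143 and miR-145 lower in all DKO samples, and the WT replicate 3 value of miR-34b-5p is the floor.

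Other markers did not separate the groups. MiR-204, known from pigment epithelium, lens and ciliary body, stood at 9.12, 9.05 and 9.19 in WT and at 8.85, 9.41 and 8.85 in DKO. MiR-211 had a wider spread in DKO, at 7.85, 7.57 and 7.46 in WT and 5.81, 8.03 and 6.65 in DKO. The 4 tested muscle assays had differences between −0.21 and 0.02, and of the epithelial miR-200 family only miR-141* was tested (−0.09).

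Families linked to differentiation had small differences. Of 13 tested let-7 assays, 3 lay wholly higher (23.1%, against 14.2% of all assays): let-7i at 0.64, let-7c at 0.52 and let-7b at 0.41. Negative differences were found for 7 of the 13, the lowest being let-7g* at −0.60, and the median was −0.04. In let-7i the WT samples stood at 4.26, 4.20 and 4.45 and the DKO samples at 5.06, 4.85 and 4.91. Of 9 tested miR-99, miR-100 and miR-125 assays, whose genes lie beside let-7 genes, 4 lay wholly higher (44.4%, against 14.2%), namely miR-99a (0.42), miR-100 (0.46), miR-125b (0.47) and miR-125b-1* (1.15). MiR-125b-1* stood at −6.21, −6.35 and −6.44 in WT and −5.04, −5.40 and −5.12 in DKO and passed in the 6-sample fit (adjusted p = 0.0363). It too joined its list after the assay names had been seen, and without it 3 of 8 lay wholly higher (37.5%). These shifts are relative to the mean of the scaling assays: without scaling no let-7 assay and 1 of the 9 lay wholly higher.

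All 7 tested miR-30 assays had negative differences, with a median of −0.48, where 130 of all 309 assays (42.1%) were negative. Wholly lower were 3 of the 7 (42.9%, against 13.6% of all assays), and none of the 7 without scaling. The lowest was miR-30b* at −1.01, and miR-30c stood at 7.43, 7.13 and 7.24 in WT and 6.53, 7.12 and 6.69 in DKO. Of 47 tested assays of the imprinted Dlk1-Dio3 cluster, 41 had a positive difference (179 of all 309 did, 57.9%), with a median of 0.24. Wholly higher were 5 of the 47 (10.6%, against 14.2% of all assays). Without scaling 6 of the 47 were positive, so their direction depends on the scaling. The spread was wider in DKO than in WT for 222 of the 309 assays, with median SDs of 0.325 and 0.196. Between DKO replicates 1 and 3 alone, the closest DKO pair, the median SD was 0.184. An SD from 2 samples tends to come out lower than an SD from 3, so it cannot be ranked against the 0.196 of WT.

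Among the remaining separated assays, miR-26b, of the miR-26 family, stood at 5.41, 5.13 and 4.83 in WT and 3.86, 4.45 and 3.77 in DKO (difference −1.09 ± 0.30, adjusted p = 0.175). MiR-335*, from the imprinted Mest gene, stood at 1.54, 1.20 and 1.47 in WT and 0.26, −0.12 and 0.66 in DKO (difference −1.14 ± 0.31). On the higher side, miR-672 stood at 0.21, −0.19 and 0.17 in WT and 1.87, 0.45 and 1.52 in DKO (difference 1.21 ± 0.38, adjusted p = 0.202). MiR-497, which is clustered with miR-195 and shares its seed, stood at 0.29, −0.03 and 0.34 in WT and 1.53, 0.35 and 1.63 in DKO, and miR-193b at 2.96, 2.59 and 3.00 in WT and 3.69, 3.51 and 3.71 in DKO. In all 5 the groups were apart and none of the differences passed.

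Of the other lists, 2 of 7 tested assays of the miR-23, miR-27 and miR-24 clusters lay wholly lower (28.6%, against 13.6% of all assays), none of 5 miR-29 assays was separated, and 1 of 7 assays of the imprinted Sfmbt2 cluster lay wholly higher (14.3%, against 14.2%). Of 7 tested growth-linked assays, miR-21 at −0.41 and the hypoxia-induced miR-210 at −0.77 lay wholly lower (28.6%), while miR-221 at 0.45 and miR-222 at 0.57 overlapped. Of the 2 tested miR-181 assays, miR-181a at 0.10 lay wholly higher. Without scaling miR-181a was at −0.28, no growth-linked, Sfmbt2 or miR-181 assay was separated, and 1 of the 7 assays of the miR-23, miR-27 and miR-24 clusters lay wholly lower. None of the 22 assays of early embryonic miRNAs was tested, since none was detected in all samples of either group.

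The first set holds WT and DKO retinas in other samples. Whether the DKO effect differed from set to set was tested for 167 assays. The effect of DKO differed in 31 of them (18.6%; limma interaction term, adjusted p under 0.05), 14 with the second set higher (8.38%) and 17 lower (10.2%). In 24 of the 31 the effect was larger in size in the first set, and in 22 the signs were opposite. The 31 were picked for a large difference between the effects, which by itself favours opposite signs. Over all 167 assays the signs were the same in 86. MiR-183 was lower by more in the second set, at −2.65 against −0.65 (adjusted p = 0.0468), whereas miR-96 at −3.02 against −0.91 missed the threshold (adjusted p = 0.0564) and miR-182 was at −2.42 against −1.68 (adjusted p = 0.3). Of the miRNAs lower in the second set, miR-145 was at −1.12 there and at 0.91 in the first (adjusted p = 0.0283). MiR-26b was at −1.06 and 0.25, miR-872* at −1.04 and 0.04, miR-15a at −0.91 and 0.44, and miR-191 at −0.76 and 0.06, each with an adjusted p of 0.0283 or 0.0344 for the difference. On the higher side miR-193b was at 0.82 in the second set and −0.21 in the first (adjusted p = 0.0283). None of these 6 second-set differences passed the test of the second set alone over its 10 samples.

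Several miRNAs had large first-set effects and small second-set ones. MiR-29a, on the scale of both sets, stood at −0.50, −0.62 and −1.03 in first-set WT and 3.16, 2.67 and 3.02 in first-set DKO, and at 2.85, 2.91 and 2.31 and 2.79, 3.77 and 2.02 in the second set. The first-set groups did not overlap and the second-set groups did, with effects of 3.66 and 0.17 (adjusted p = 0.00297). MiR-27a was at 0.29 in the second set against 2.68 before (adjusted p = 0.00151), and miR-149 at 0.49 against −2.02 (adjusted p = 0.000506). All of these calls depend on scaling, since without it 0 of 167 assays differed between the sets. With single samples left out, between 3 and 37 assays differed: 3 without WT replicate 1 or 2 of the second set, 5 without its WT replicate 3 and 9 without its DKO replicate 3. In the first set, leaving out the WT sample numbered 2 gave 12 and the DKO sample numbered 3 gave 10. The labels tie the sets to different figures of the study. Of the assays, 42 had no Cq in any first-set WT or DKO sample and a Cq of at most 30 in every second-set one, and what else differs between the sets was not tested.

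**Figure D5:**
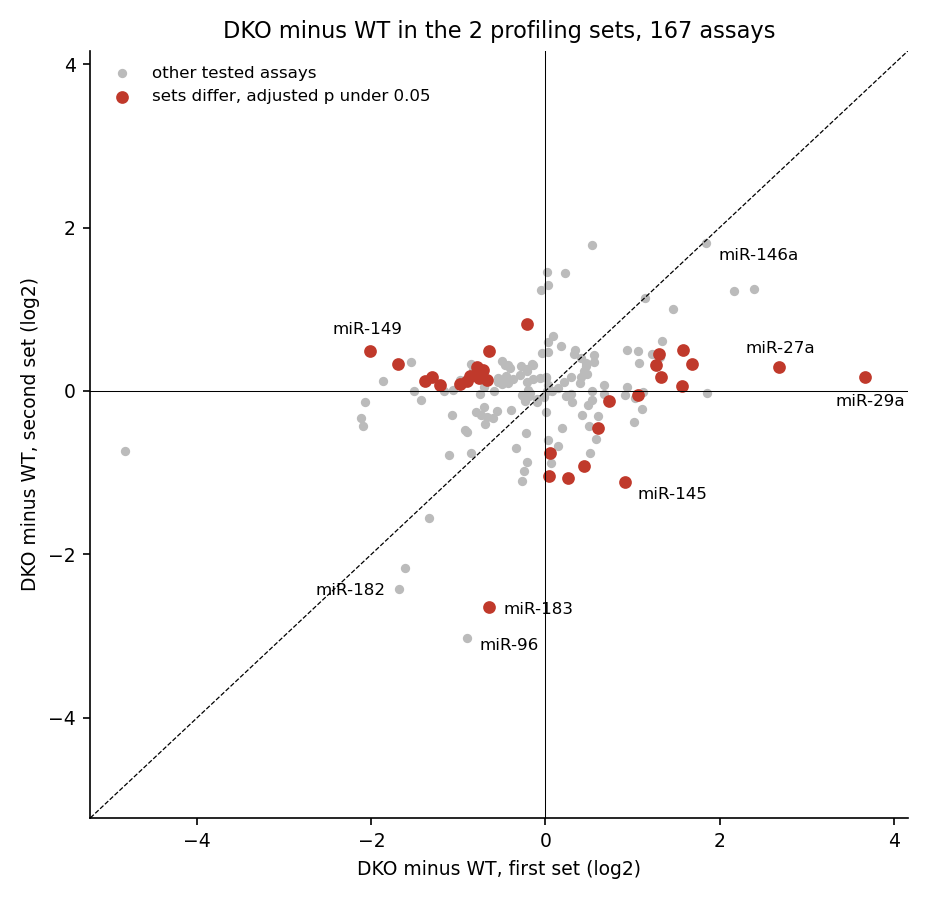
DKO minus WT (log2) for 167 assays, the second set on the vertical and the first on the horizontal axis, with the line of equal effects dashed; red points differ between the sets at an adjusted p under 0.05. Most red points lie far from 0 on the horizontal axis and near 0 on the vertical axis, while miR-183 and miR-145 lie lower in the second set.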

How the data were processed

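Per the labels' protocols, RNA was purified with microRNeasy, reverse transcribed with 522 stem-loop primers and pre-amplified over 14 cycles. The deposited table gives Cq values, in PCR cycles, that the authors describe as not normalized; software, threshold and baseline are not given in the sources used here. It has 10 unnamed columns, which were not used. An assay was tested if detected (Cq 32 or lower) in all samples of WT or of DKO. The floor is the scaled value that Cq 32 takes in the sample where it is highest. It raised 104 of 3248 detected values. The models were fitted in R 4.3.3 with limma 3.58.1 (functions lmFit, contrasts.fit and eBayes; two-sided; Benjamini-Hochberg over all assays tested, threshold 0.05) on all 10 second-set samples with one mean per group. The between-set test used the 12 WT and DKO samples of both sets, an interaction contrast and a floor of −4.83, and an assay had to be detected in all samples of WT or DKO in each set. Mean Cq was compared by an exact permutation test. The fits were tested on simulated data. Cq tables give no molecule counts, so the number of samples limits the precision.

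Named were called assays, up to 12 rising and 12 falling without overlap, members of 24 lists (all of short lists; of longer ones the highest, lowest and most abundant) and the largest differences between sets. The comparison, lists and tests were chosen with earlier results of these data known, and 7 list members, miR-125b-1* and miR-218-1* among them, were added once the assay names in the table had been seen. Outside the rule, and after their values were seen, were named let-7b, miR-9*, miR-15a, miR-21, miR-27b, miR-99a, miR-100, miR-124a, miR-135b, miR-142-5p, miR-191, miR-191*, miR-218-1*, miR-221, miR-335, miR-339-5p, miR-676, miR-872 and miR-872*. Alternatives were scaling, detection limit, handling of undetected values, samples in the fit, trend and robust estimation, a replicate block and leaving out each sample.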

Additional observations from a re-analysis of the deposited data

Results flagged for a closer look

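Among the 4 DKO_P53KO samples of the second set, replicate 3 lay apart from the other 3 by more than Dixon's 95% limit for miR-183 (−6.94) and for miR-96 (−7.40, the floor). Such a limit marks about 1 in 20 groups by chance. This sample is outside the comparison but inside its fit, and the miR-183, miR-183*, miR-96 and miR-182 assays passed the test without it.

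The DKO effect differed between the sets for these miRNAs, given as second minus first set in log2: 2.51 for miR-149, 2.03 for miR-409-3p, 1.50 for miR-127, 1.47 for miR-671-3p and 1.27 for miR-376c on the higher side. On the lower side they were −3.49 for miR-29a, −2.39 for miR-27a, −2.02 for miR-145, −2.003 for miR-183 and −1.51 for miR-24. For miR-671-3p, DKO replicate 1 of the first set had no Cq and took the floor of −4.83. DKO replicates 2 and 3 of that set stood at −3.43 and −3.68, so the difference rests in part on a well without a Cq. MiR-409-3p, miR-127 and miR-376c belong to the Dlk1-Dio3 cluster and had second-set effects of 0.33, 0.12 and 0.07 against −1.69, −1.38 and −1.21 in the first set. They were the only 3 of the 18 assays of that cluster in the between-set test that differed, against 31 of all 167 (18.6%).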

How the results depend on the processing

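No assay named in the text that was called in DKO against WT changed sign under any alternative run. The count of 2 called assays held with median scaling, a detection limit of Cq 35, undetected values left missing, every-sample detection and no filter. It was 0 without scaling, 4 at a limit of Cq 30, 12 in a fit of only WT and DKO and 1 with trend and robust estimation, where miR-378 TM 567 was lost (adjusted p = 0.0645). With the replicate number as a replicate block it was 1, miR-124* (adjusted p = 0.00915), and neither miR-378 assay passed (adjusted p = 0.0707 for TM 2243 and 0.104 for TM 567). Same-numbered WT and DKO samples had correlations of −0.0523, 0.297 and 0.529 between their deviations over 284 assays. WT replicates 2 and 3 correlated best with the DKO sample of their own number, and WT replicate 1 with DKO replicate 2. These values do not settle whether the numbers mark pairs, and the main fit took none. Leaving out single samples gave 0 to 12 calls, 12 without DKO replicate 2 and 10 without DKO_P53KO replicate 3. Further fits added after the data were seen gave 38 calls without both of these samples and 60 for WT and DKO alone without DKO replicate 2, on 312 assays each. The count of 31 between-set differences was 0 without scaling and 4 with the replicate block. It ranged from 3 to 37 when single samples were left out: 3 without WT replicate 1 or 2 of the second set, 5 without WT replicate 3, 9 without DKO replicate 3, and 12 and 10 without WT replicate 2 and DKO replicate 3 of the first set. The mean Cq difference of 0.37 cycles ranged from 0.16 to 0.62 with single samples left out. It was 0.37 with the replicate block (exact permutation p = 0.25, the smallest possible with swaps within same-numbered samples). Over 98 named assays, 19 results were no longer past the threshold under an alternative, 95 came to pass it and 89, none of them past the threshold, had the other sign, of 2146. Assays with undetermined wells have only a bound there, and 3 samples a group limit the precision.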
